A study of Mus musculus with 9 samples.

Results

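The Meis1 gene and its flanks were examined as 1 locus of the peak lists of chromatin immunoprecipitation followed by sequencing in mouse MLL-AF9 cells. The window ran on chromosome 11 from 18650000 to 19050000 (build mm9, 400 kb), and peaks were taken into it by position alone. The window was chosen with earlier results of these data known. Every peak of any list that overlapped it was a member, which gave 53 of the 182249 peaks in the 8 lists. The Meis1 gene itself was taken to lie at about 18780000 to 18920000 and is transcribed toward lower coordinates, so its start is at the upper end of that interval. An annotation of mm9 was not used here. Positions inside the gene could therefore not be assigned to an exon, an intron or an untranslated region, and because the interval has rounded ends, regions close to an end cannot be placed inside or outside the gene with certainty.

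The cells were c-kit+ bone marrow cells of C57BL/6 mice transformed with the fusion oncogene MLL-AF9, and all of them also carried pMIG-TGIF1-ER, a construct in which TGIF1 is joined to the estrogen receptor. Cells given 4-OHT (4-hydroxytamoxifen) for 20 h, which makes TGIF1-ER active, were set against cells given EtOH (ethanol). Each treatment had 2 libraries with a TGIF antibody and 2 with a Meis antibody, called TGIF1 and MEIS1 in the sample titles. The Meis antibody is not labelled for a particular family member. Cells without TGIF1-ER that received 4-OHT were not part of the comparison, so effects of 4-OHT and of active TGIF1 cannot be told apart. Separate cultures are not recorded for paired libraries of 1 group, and p-values measure only the spread between these libraries, which may be technical.

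MEIS1 is a homeodomain protein of the TALE class that binds DNA together with HOX and PBX proteins. Its gene is switched on in normal blood stem cells, goes down as they mature, and is kept active in leukaemias with MLL fusions, where it is needed for the growth of the leukaemic cells. TGIF1 belongs to the same TALE class, recognises a similar core DNA word and acts as a repressor that recruits corepressors. At the Meis1 locus the lists therefore show where MEIS1 was found on its own gene and where TGIF1 was found beside it.

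The 53 peaks fell into 20 merged regions, numbered 1 to 20 from low to high coordinate. A merged region joins peaks of any list that overlap by at least 1 bp. MEIS1 peaks were present in 13 regions and TGIF1 peaks in 11. Both proteins had a peak in 4 regions (20%), beside 34.2% of the 60709 merged regions of the genome. Such counts pool the treatments: in region 9 MEIS1 was called under EtOH only and TGIF1 under 4-OHT only. MEIS1 alone was found in 9 regions (45%, genome 55.7%), and TGIF1 alone in 7 (35%, genome 10.1%). All 4 MEIS1 lists had a peak in 7 regions (35%, genome 26.1%), and 7 regions were called in a single list (genome 27.2%). Regions 7 and 15 were the fullest: each held a peak in both TGIF1 4-OHT lists and in all 4 MEIS1 lists, as did 8.44% of merged regions over the genome. Region 15 (chr11:18918333-18919295) lay at the upper end of the gene interval, near the start of Meis1. Region 7 (chr11:18824824-18825414) lay deep inside the gene interval.

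**Figure D1:**
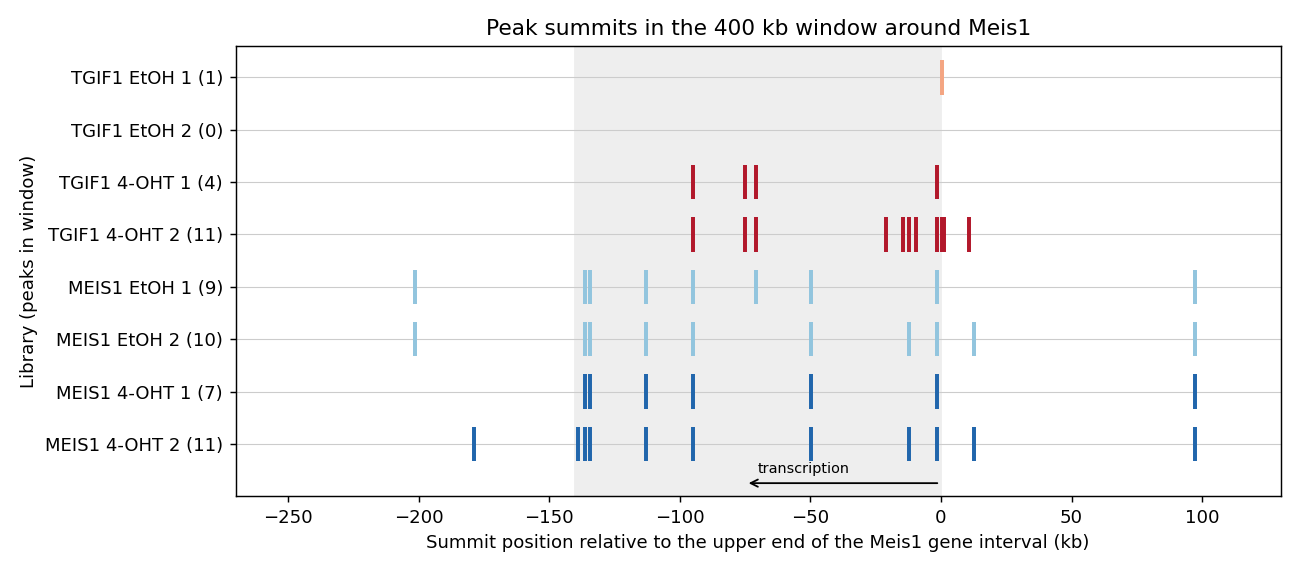
Peak summits of the 8 lists along the window, in kb from the upper end of the Meis1 gene interval (grey band, transcription from right to left); each mark is 1 summit and the number of peaks is given beside each library. MEIS1 marks recur at the same 7 places in all 4 lists, while TGIF1 marks lie inside the gene interval or just above it.

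Because region 15 lies near the start of the gene, the sequence before the Meis1 start is shown. It was taken from RefSeq (build GRCm38.p6, minus strand, chr11:19018970-19019219, 250 bases up to the start, 5′ to 3′). These coordinates belong to another build than the peaks and cannot be set against mm9 positions, so whether the sequence lies under the peaks of region 15 was not determined. Capitals mark CpG dinucleotides.

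Meis1: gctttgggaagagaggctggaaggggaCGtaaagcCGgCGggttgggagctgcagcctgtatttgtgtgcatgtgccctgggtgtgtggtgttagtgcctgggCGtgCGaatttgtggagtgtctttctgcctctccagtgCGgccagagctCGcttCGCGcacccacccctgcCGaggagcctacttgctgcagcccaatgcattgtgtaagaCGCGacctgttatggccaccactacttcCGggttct

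The 250 bases held 13 CpG dinucleotides, against a median of 6 over 32851 promoter windows of the same table, of which 31.5% had at least as many. Their GC content was 59.6%. The MEIS and TGIF core words TGACAG and TGTCA and the HOX-type word TGATTTAT were searched on both strands of the full 300-base window, which adds 50 bases after the start. The reverse complement of TGACAG contains TGTCA, so those searches overlap. None of these letters occurred there, and they were present in 19.2%, 45.4% and 0.977% of all promoter windows. The absence of a word says only that these letters are not in this window.

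The treatments overlapped in the number of MEIS1 peaks at the locus. The MEIS1 EtOH lists had 9 and 10 peaks in the window (replicates 1 and 2), and the MEIS1 4-OHT lists had 7 and 11. The EtOH values lay between the 4-OHT values. The means were 9.5 ± 0.707 (SD, n = 2) and 9.0 ± 2.83 (SD, n = 2), a log2 ratio of 4-OHT over EtOH of -0.078 (two-sided exact permutation p = 1.0). Peak numbers also follow the length of a list, and these lists held 26254, 43564, 21173 and 48829 peaks. Per 10000 listed peaks the window had 3.43 and 2.30 under EtOH and 3.31 and 2.25 under 4-OHT (two-sided exact permutation p = 0.667). Replicate 1 had the higher value and replicate 2 the lower in both treatments. The depth of the libraries is unknown, and the lists hold no height or read number.

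Of the TGIF1 peaks in the window, 15 came from induced cells and 1 from cells given EtOH. The TGIF1 EtOH lists had 1 and 0 peaks in the window, and the TGIF1 4-OHT lists had 4 and 11. Both induced lists exceeded both EtOH lists. The means were 0.5 ± 0.707 (SD, n = 2) and 7.5 ± 4.95 (SD, n = 2), which is a 15-fold difference and a log2 ratio of 3.91 (two-sided exact permutation p = 0.33, the smallest possible with 2 libraries per group). The whole lists differed as well, with 2764 and 592 peaks under EtOH and 12141 and 26932 under 4-OHT. Per 10000 listed peaks the window had 3.62 and 0 under EtOH and 3.29 and 4.08 under 4-OHT, and these groups overlapped (two-sided exact permutation p = 0.667). The larger number at the locus was thus not separable from the greater length of the lists as a whole. Without TGIF1 4-OHT replicate 2 the log2 ratio of peak numbers was 3.00. Without TGIF1 EtOH replicate 2 the log2 ratio was 2.91. Without TGIF1 EtOH replicate 1 no TGIF1 EtOH peak was left and no ratio could be formed.

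The window was richer in peaks than most stretches of the genome, without being extreme. Over 6598 adjacent tiles of 400 kb, the median tile held 2 and 3 peaks in the MEIS1 EtOH lists, 2 and 4 in the MEIS1 4-OHT lists, and 0 and 1 in the TGIF1 4-OHT lists. At least as many MEIS1 peaks as in the Meis1 window were found in 17.3% and 28.1% of tiles under EtOH and in 18.2% and 29.4% under 4-OHT. For TGIF1 under 4-OHT the shares were 19.8% and 13.5%. The single peak of TGIF1 EtOH replicate 1 was matched or exceeded in 24.5% of tiles. Tiles ran from the first base to the last peak of each chromosome and include stretches to which no read can be assigned.

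**Figure D2:**
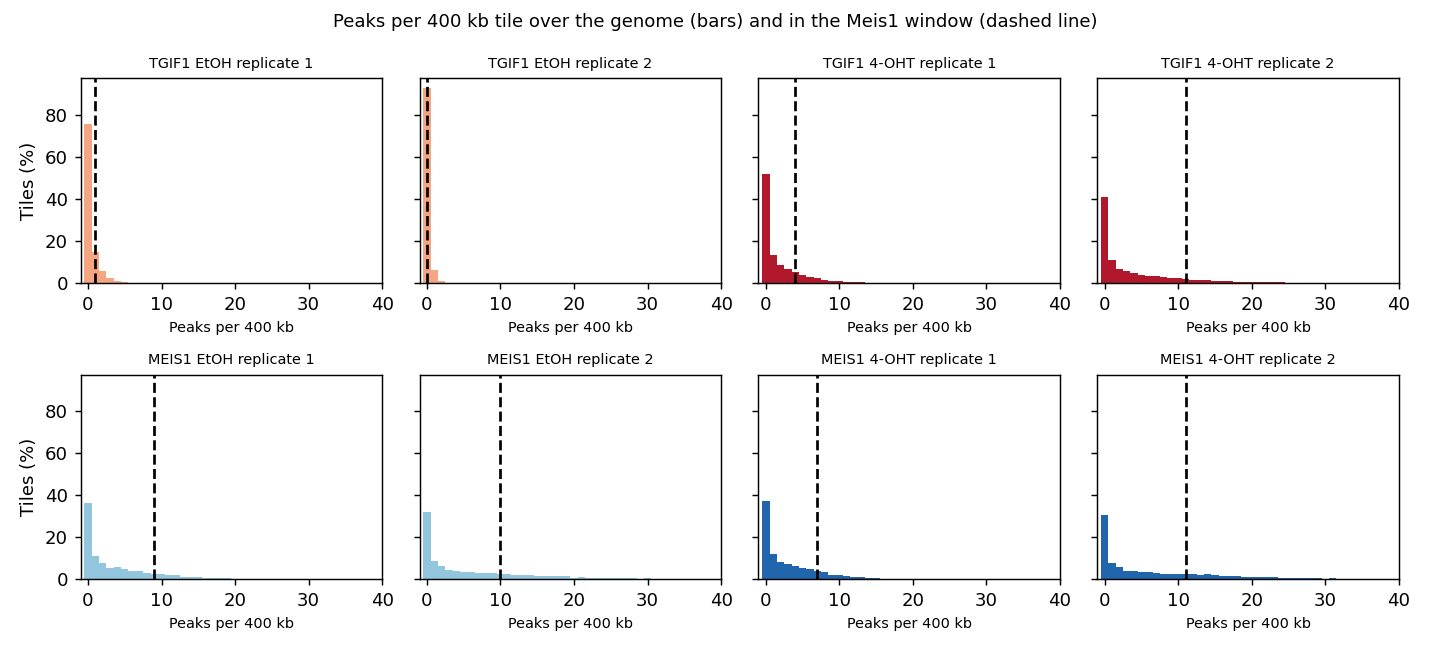
Share of 400 kb tiles (y axis, percent) by number of peaks per tile (x axis, drawn up to 40) in each list, with the number in the Meis1 window as a dashed line. The lines stand to the right of the median tile in 7 lists, and in TGIF1 EtOH replicate 2 the line stands at 0.

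Within the window most regions lay in the gene interval, on which the window is centred. The densities below were not set against other genes, so they do not single out this locus. The gene interval (140 kb) held 13 of the 20 regions, or 9.29 per 100 kb. The low-coordinate flank, downstream of the gene, held 2 (1.54 per 100 kb), and the high-coordinate flank, upstream of it, held 5 (3.85 per 100 kb). All 4 regions with both proteins and 6 of the 7 regions found in all 4 MEIS1 lists were inside the gene interval, with region 15 counted there. The downstream flank (130 kb) had no TGIF1 peak. Over the genome the median tile of 400 kb held 0 and 1 peaks in the TGIF1 4-OHT lists. In the RefSeq gene order of GRCm38.p6, a long non-coding RNA gene, Gm16141, overlaps Meis1, and the next protein-coding genes are Etaa1 below and Spred2 above. Peaks are not assigned to a gene by this position alone.

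**Figure D3:**
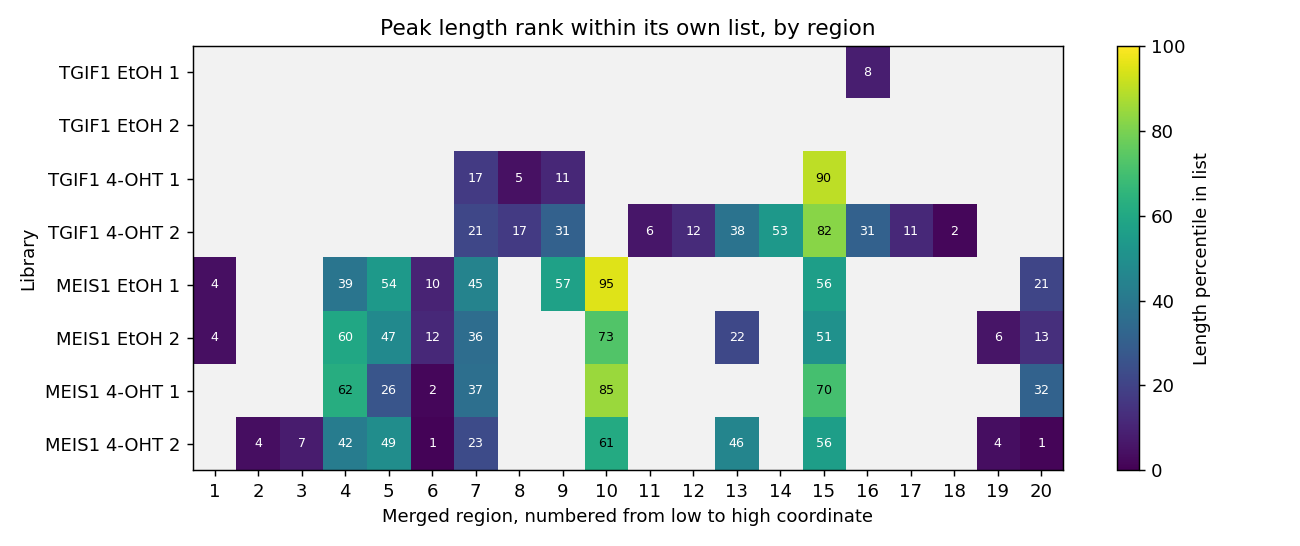
Peaks of the 8 lists (rows) in the 20 merged regions (columns), coloured and numbered by the percentile of their length within their own list; grey cells have no peak. Regions 7 and 15 are filled in 6 rows, and the highest percentiles are those of region 10 for MEIS1 and of region 15 for TGIF1.

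Near the start of the gene, region 15 was the leading TGIF1 site of the locus. Peak length was the only measure of size in the lists. It is given as a percentile, the rank of a peak by length within its own list, where peaks of equal length share their mean rank. The TGIF1 4-OHT peaks of region 15 were 718 and 918 bp long (percentiles 89.9 and 82.1), the longest TGIF1 peaks of the window in both lists. The MEIS1 peaks there were 380 and 636 bp under EtOH (percentiles 56.2 and 50.8) and 508 and 596 bp under 4-OHT (percentiles 70.4 and 56.2). Both TGIF1 peaks were longer than all 4 MEIS1 peaks. No TGIF1 EtOH list had a peak at this region.

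All 6 summits of region 15 lay within 17 bp, from 18918635 to 18918652. The 4 MEIS1 summits spanned 8 bp and the TGIF1 summits 7 bp. The TGIF1 peaks were lopsided. Their summits were 116 and 267 bp from the lower end and 601 and 650 bp from the upper end, the side away from the gene body. The MEIS1 summits too were nearer the lower end. Under EtOH they were 105 and 302 bp from the lower end and 274 and 333 bp from the upper end. Under 4-OHT they were 233 and 259 bp from the lower end and 274 and 336 bp from the upper end. The TGIF1 peaks reached 274 and 316 bp past the highest end of any MEIS1 peak. In the whole TGIF1 4-OHT lists 0.568% and 12.7% of peaks had a summit at least as far to one side, in either direction. This comparison was not planned, was made for region 15 alone and took in peaks of every length.

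**Figure D4:**
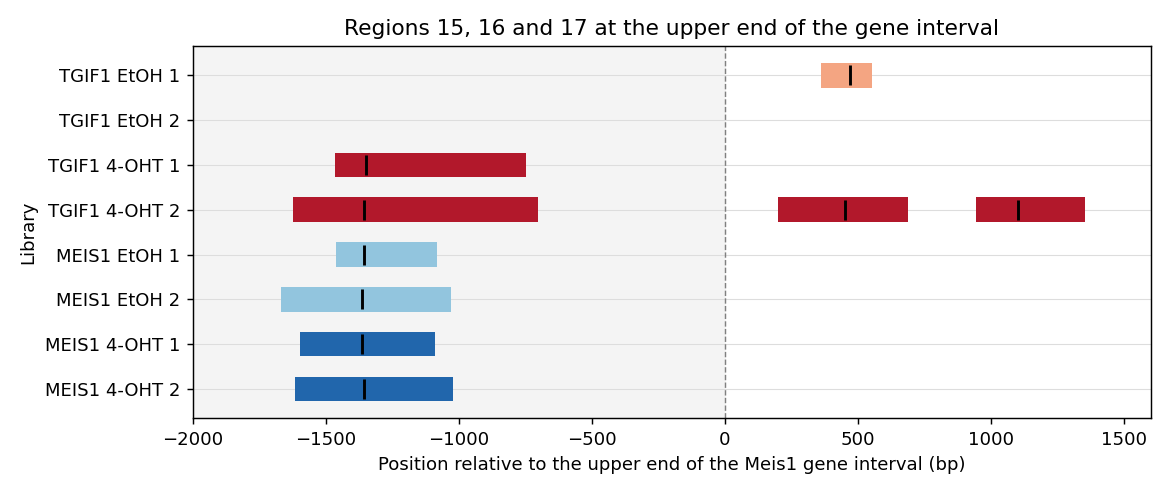
Peaks of regions 15, 16 and 17 drawn to scale (bars, black ticks mark summits) in bp from the upper end of the Meis1 gene interval, which is approximate. The 6 summits of region 15 line up within 17 bp, the TGIF1 4-OHT bars extend further to the right than the MEIS1 bars, and regions 16 and 17 hold TGIF1 peaks alone.

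Just above region 15 lay the only place in the window with a TGIF1 peak in cells given EtOH. Region 16 (chr11:18920201-18920689) was 905 bp further up and held a peak of 193 bp in TGIF1 EtOH replicate 1 (percentile 8.27) and one of 489 bp in TGIF1 4-OHT replicate 2 (percentile 30.9). Their summits were 19 bp apart. Neither TGIF1 EtOH replicate 2 nor TGIF1 4-OHT replicate 1 had a peak there, so the site was not reproducible in either treatment, and no MEIS1 list had one. It was also the region nearest to the upper end of the gene interval. Over the genome 21.1% of the 11143 TGIF1 4-OHT regions found in both libraries (reproducible regions) overlapped a TGIF1 EtOH peak. At the Meis1 locus this was 0 of 4 (exact 95% interval 0 to 60.2%).

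Region 7, the other site with a peak in both TGIF1 4-OHT and all 4 MEIS1 lists, had peaks below the median length of each of those 6 lists. Its MEIS1 peaks were 348 and 581 bp under EtOH and 404 and 478 bp under 4-OHT, and its TGIF1 4-OHT peaks were 342 and 454 bp (percentiles 16.9 and 21.3). The MEIS1 summits spanned 61 bp, the widest of the 7 regions in all 4 MEIS1 lists, through MEIS1 4-OHT replicate 1. The TGIF1 summits were 6 bp apart and lay 10 to 46 bp from those of MEIS1.

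The remaining reproducible TGIF1 regions were a neighbouring pair in the middle of the gene. Region 8 (chr11:18844923-18845358) had TGIF1 4-OHT peaks of 284 and 436 bp, with summits 12 bp apart, and no peak in any MEIS1 list. Region 9 (chr11:18848866-18849355), 3507 bp further up, had TGIF1 4-OHT peaks of 320 and 490 bp and a single MEIS1 peak of 383 bp, in EtOH replicate 1. The MEIS1 summit of region 9 was 93 and 115 bp from the TGIF1 summits, the largest distances in the window. In region 13 (chr11:18907488-18908050), called in the replicate 2 lists of TGIF1 4-OHT, MEIS1 EtOH and MEIS1 4-OHT and in no replicate 1 list, the TGIF1 summit was 5 bp from both MEIS1 summits.

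Over the 20 pairs of overlapping TGIF1 4-OHT and MEIS1 peaks in the window, the median distance between summits was 14 bp. By pair of libraries the medians were 5 to 31.5 bp, from 2 or 3 pairs of peaks each, beside 28 to 31 bp for the same pairs of libraries over the genome. The MEIS1 peaks came from both treatments, so some pairs set TGIF1 from 4-OHT cells against MEIS1 from EtOH cells. The medians were 10 to 16 bp with MEIS1 EtOH lists and 5 to 31.5 bp with MEIS1 4-OHT lists. The 20 distances come from 4 regions and share their libraries. For MEIS1 alone, the 4 summits of a region spanned a median of 28 bp in the window (7 regions) and 28 bp over the genome (14338 regions).

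**Figure D5:**
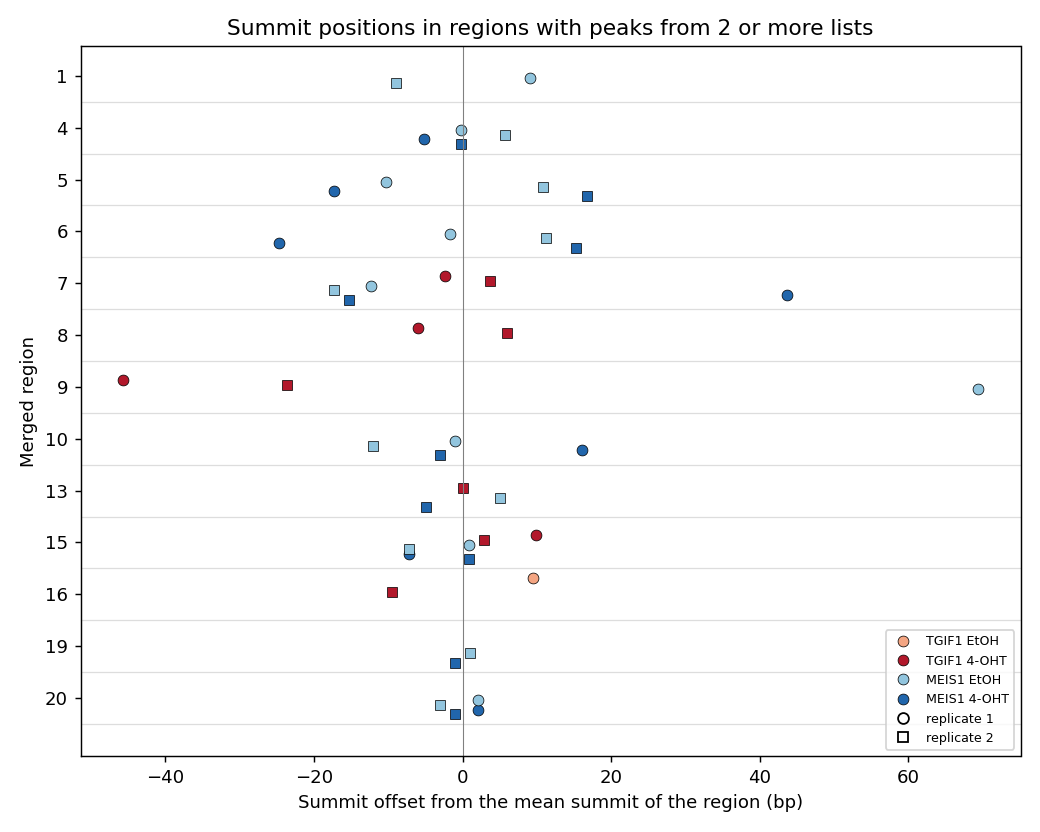
Summits of each region with peaks from at least 2 lists, as bp from the mean summit of that region (colour by protein and treatment, circles replicate 1, squares replicate 2, each library on its own height within a row). All summits lie within 10 bp in region 13 and within 17 bp in region 15, and in region 9 the MEIS1 summit stands 93 to 115 bp from those of TGIF1.

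TGIF1 was often found without MEIS1 at this locus, mainly through 1 library. Of the 11 regions with a TGIF1 4-OHT peak, 7 (63.6%, exact 95% interval 30.8 to 89.1%) held no MEIS1 peak in any list, where 22.2% of 26615 such regions did so over the genome. These were regions 8, 11, 12, 14, 16, 17 and 18. Peaks of TGIF1 4-OHT replicate 2 alone made up 5 of the 11 regions (45.5%), beside 16.8% over the genome, and 5 of the 7 without MEIS1 (71.4%), beside 75.5% over the genome. Without TGIF1 4-OHT replicate 2 the count was 1 of 4 (25%), beside 13.3% of the peaks of replicate 1 over the genome. Of the 7 replicate 2 peaks without MEIS1, 6 (85.7%) were under the median length of their list, beside 75.8% over the genome. Among all replicate 2 peaks under that length, 6 of 9 in the window (66.7%) lacked MEIS1, beside 32.2% over the genome. Regions of 1 locus are not replicates, and no test was made of these shares. The exact interval treats neighbouring regions as independent, so it cannot tell the locus from the genome. The share of TGIF1 4-OHT regions without MEIS1 was not among the planned comparisons. Between chr11:18898749-18899125 (region 11) and chr11:18920944-18921353 (region 17), 7 regions with TGIF1 lay within 22.6 kb around the upper end of the gene interval. Only region 15 among them had a peak in both TGIF1 4-OHT lists. In the others replicate 2 was the only TGIF1 4-OHT list with a peak. This stretch was marked out after the peaks were seen, and no share over the genome was computed for it.

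Most MEIS1 sites of the locus had no TGIF1, as over the genome: 9 of the 13 regions with a MEIS1 peak (69.2%) were in no TGIF1 list, beside 62.0% of 54572. TGIF1 4-OHT binding that was itself reproducible met 2 of the 8 reproducible MEIS1 EtOH regions (25%, with an exact 95% interval of 3.19 to 65.1%), beside 29.8% of 22793 over the genome. Among the 7 reproducible MEIS1 4-OHT regions it was 2 (28.6%), beside 28.8% of 19864. These shares were near the background. Seen from TGIF1, 2 of the 4 reproducible 4-OHT regions (50%, with an exact 95% interval of 6.76 to 93.2%) carried reproducible MEIS1 binding under EtOH, beside 60.9% over the genome. The same 2 carried it under 4-OHT, beside 51.0%. Of the 7 regions in all 4 MEIS1 lists, 2 held a TGIF1 4-OHT peak, beside 54.2% of 15835 over the genome. With so few regions these shares were not precise enough to tell the locus from the genome.

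The 5 regions of MEIS1 in all 4 lists and of no TGIF1 were regions 4, 5, 6, 10 and 20; they are named to account for all members. Region 10 (chr11:18869808-18870583), inside the gene, had the longest MEIS1 peaks of the window: 631 and 776 bp under EtOH (percentiles 95.1 and 72.9) and 579 and 620 bp under 4-OHT (percentiles 85.0 and 61.2). In each of the 4 lists it was the longest peak at the locus. Regions 4 (chr11:18783280-18783958) and 5 (chr11:18785536-18786168) lay 1577 bp apart near the lower end of the gene interval, with MEIS1 peaks of 333 to 679 bp. Region 6 (chr11:18806930-18807417) had peaks of 249 to 488 bp. Region 20 (chr11:19017067-19017563) stood about 97067 bp above the gene interval, with peaks of 285 to 497 bp and all 4 summits within 5 bp.

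Peak length at the 7 regions in all 4 MEIS1 lists did not move in 1 direction with treatment. At region 6 the percentiles were 9.92 and 11.6 under EtOH and 1.69 and 0.871 under 4-OHT, so both EtOH values were higher. This order was seen in 1 of the 7 regions, beside 13.2% of 15835 regions over the genome. At region 15 both 4-OHT percentiles were higher than both EtOH percentiles, but the lower 4-OHT value (56.157) and the higher EtOH value (56.153) were almost equal. Another way of ranking peaks of equal length could change the order of these 2 values, which was not tested. That order too was seen in 1 of the 7, beside 13.4%. In the other 5 regions the treatments overlapped. Both counts were near the background.

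A single reproducible MEIS1 site was seen in EtOH cells alone. Region 1 (chr11:18718369-18718802), in the downstream flank, held MEIS1 peaks of 220 and 434 bp in the EtOH libraries and none in either 4-OHT library. It was thus the single one of 8 reproducible MEIS1 EtOH regions (12.5%, with an exact 95% interval of 0.316 to 52.7%) that had no MEIS1 peak under 4-OHT, beside 2.91% of 22793 over the genome. Its peaks were among the shortest of their lists (percentiles 3.93 and 4.18). Of the 159 reproducible MEIS1 EtOH regions with a mean percentile up to 5, 14.5% were absent under 4-OHT. No TGIF1 list had a peak at region 1. In the mirror comparison none of the 7 reproducible MEIS1 4-OHT regions was absent from both EtOH lists (exact 95% interval 0 to 41.0%), beside 3.22% over the genome. Regions 2 and 3 held a MEIS1 peak of 4-OHT replicate 2 alone (376 and 406 bp), and region 19 held MEIS1 peaks of both replicate 2 lists (447 bp under EtOH and 376 bp under 4-OHT).

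At the locus, as over the genome, nearly all peaks of the shorter list recurred in the longer one for TGIF1 under 4-OHT and for MEIS1 in both treatments. The TGIF1 EtOH lists, with 1 and 0 peaks in the window, were not compared in this way. All 4 peaks of TGIF1 4-OHT replicate 1 overlapped replicate 2 (96.5% over the genome), and 4 of the 11 peaks of replicate 2 overlapped replicate 1 (41.4%). For MEIS1 under EtOH the counts were 8 of 9 (90.8%) and 8 of 10 (52.3%). For MEIS1 under 4-OHT they were 7 of 7 (95.7%) and 7 of 11 (40.7%). In the pairs compared, the longer list thus held the peaks that its partner lacked, except for the MEIS1 EtOH replicate 1 peak of region 9.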

How the data were processed

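TGIF1 and MEIS1 binding was measured in 8 libraries (2 for each antibody and treatment), and groups and replicate numbers came from the sample titles. A 9th sample, IgG, was not analysed here. The authors' deposited files give 1 peak list per library, with chromosome, start, end, length and summit in bp, and no score, count or signal. Build mm9 and Bowtie 0.12.7 are named per the submitters' processing notes, and MACS 1.4.2 per the file header of 1 list (MEIS1 4-OHT replicate 2). For the other lists no caller is named. Thresholds, controls and filters of all lists are not given in the sources used. Depth is therefore unknown, and peak number, length and overlap all depend on it.

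Peaks overlapping the window were joined into regions at 1 bp of overlap. Reproducible regions hold a peak of both libraries of a group. Groups of libraries were compared by the log2 ratio of mean peak numbers and the exact permutation test (two-sided). Shares of regions carry exact Clopper-Pearson 95% intervals, which cover counting error only, and stand beside the same share over the genome without a test. The regions named were those with peaks in at least 6 lists, with a TGIF1 EtOH peak, reproducible for TGIF1 under 4-OHT, lost or gained, or nearest to the upper end of the gene interval (1, 7, 8, 9, 15 and 16). All others are given to account for every peak and were described after their values were seen. The window, these rules and the comparisons were chosen with earlier results of these data known. A planned search for motifs under the peaks needed an mm9 genome and was not run. Instead the RefSeq promoter table was searched. Python 3.11.15 with numpy 2.4.6, pandas 2.3.3, scipy 1.17.1 and matplotlib 3.10.9 were used. The overlap code was tested on simulated data and gave the same counts as bedtools 2.31.1 in 56 of 56 pairs of lists.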

Additional observations from a re-analysis of the deposited data

How the results depend on the processing

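The number of MEIS1 peaks in the window had no stable direction between treatments. The log2 ratio turned from -0.078 to 0.21 without MEIS1 4-OHT replicate 1, and leaving out single libraries gave -0.44 to 0.21. It was -0.49 with the longer 50% of each list, -0.17 with lists of equal length and 0 in the gene interval alone. Per listed peak it was -0.042, turned to 0.066 in the gene interval alone, and ranged from -0.35 to 0.28 when single libraries were left out. For TGIF1, leaving out single libraries gave log2 ratios of 2.91 to 4.46 in peak number and 0.028 to 1.17 per listed peak. With the longer part of each list, in the gene interval alone or without TGIF1 EtOH replicate 1, no TGIF1 EtOH peak was left and no ratio could be formed. With lists of equal length no TGIF1 peak was left in the window at all. The shortest TGIF1 list held 592 peaks and the longest 26932, so this empty window says little about the locus.

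The shares of regions rest on few regions. MEIS1 EtOH regions with TGIF1 were 0 of 2 (0%) with lists of equal length, 1 of 2 (50%) in the longer 50% of each list, 4 of 11 (36.4%) with the union of libraries, and 20 to 33.3% when single libraries were left out. TGIF1 4-OHT regions with MEIS1 were 1 of 1 (100%) in the longer 50% of each list and 18.2 to 75% when single libraries were left out. Loss of MEIS1 regions was 0% in the gene interval alone, in lists of equal length and in the longer 50% of each list, settings that all leave out region 1, and 10 to 22.2% when single libraries were left out. The gained share was 18.2% (2 of 11) without MEIS1 4-OHT replicate 1 and with the union of libraries. The share of TGIF1 4-OHT regions in no MEIS1 list was not a planned comparison, and its alternatives were chosen after seeing the data. It was 25 to 72.7% when single libraries were left out. Shares of tiles moved by less than the spread between replicates. The median summit distance of 14 bp was 7.5 bp with the nearest pair of summits in each of the 4 regions and 9.5 bp in the longer 50% of each list.

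With the replicate number as a block, the log2 ratio of peak numbers was 3.05 for TGIF1 and -0.10 for MEIS1. Per listed peak the block gave -0.032 for MEIS1 and turned TGIF1 from 1.03 to -0.77, with a pseudocount of 0.5 standing for the empty list. The smallest p of this paired exact test is 0.5, so it could not pass a threshold of 0.05. Nothing in the labels says that the numbers pair libraries. Presence in replicate 1 minus replicate 2 correlated between treatments over merged regions of the genome (r = 0.282 for TGIF1, 0.228 for MEIS1), and lists of unequal length can give this without pairing.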
